A study of Homo sapiens with 8 samples.

Results

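Ribosomal protein genes were followed in an m6A comparison of CSTF2-knockout and parental cells in 2 hepatocellular carcinoma lines, HUH7 and PLC/PRF/5. The cytosolic set held the genes named RPSA, RPLP0 to RPLP2, or RPL or RPS plus digits with an optional A, X or L. The mitochondrial set held those named MRPL or MRPS plus digits, with a letter suffix allowed. Kinases named RPS6K, pseudogenes and readthrough names were left out. The rule found 81 genes of the 10446 listed in HUH7 (27 cytosolic and 54 mitochondrial) and 68 of the 5475 listed in PLC/PRF/5 (38 cytosolic and 30 mitochondrial). In all, 114 of 11992 genes were members, 52 cytosolic and 62 mitochondrial.

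Each line contributed cells with CRISPR-Cas9 knockout of CSTF2, a gene of the cleavage stimulation factor, which acts in mRNA 3′ end formation, and its parental cells as controls. Each genotype had 1 m6A immunoprecipitate (IP) and 1 input library, 8 libraries in 8 groups, so no value had a replicate and no test was possible. Whether the knockout cells were a single clone or a pool is not given in the sources used here. In MeRIP-seq, fragments carrying N6-methyladenosine are enriched with an antibody and read next to the input. The values are the authors' log2 fold changes, 1 per gene name as deposited in HUH7 and up to 26 per gene name in PLC/PRF/5, taken there as peaks. The deposit is labelled control versus knockout, an order that does not fix the numerator. Which genotype is the numerator is not stated, so signs are given as deposited and stand for neither genotype. All values are differences and none is a level. Of 9 hepatocyte markers, 6 were listed in HUH7 (ALB, AFP and TTR were not) and 7 in PLC/PRF/5 (AFP and TTR were not), which says nothing of their expression.

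The cytosolic ribosome, built in the nucleolus from rRNA and its proteins, translates the mRNAs of the nucleus. The mitochondrial ribosome translates the few mRNAs of mitochondrial DNA, and its proteins are encoded in the nucleus, made in the cytosol and imported. mRNAs of cytosolic ribosomal proteins usually begin with a 5′ terminal oligopyrimidine (TOP) tract, through which growth signals control their translation. Hepatocytes, which make most plasma proteins, are rich in both kinds of ribosome.

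The 2 sets differed in how many of their genes the table listed, and the order of the sets was not the same in the 2 lines. In HUH7, 27 of 82 cytosolic genes in RefSeq (32.9%) and 54 of 77 mitochondrial genes (70.1%) were listed, beside 51.0% of all 20052 protein-coding genes. In PLC/PRF/5, 38 of 82 cytosolic genes (46.3%) and 30 of 77 mitochondrial genes (39.0%) were listed, beside 24.1% of all protein-coding genes. These shares are descriptions of 1 list per line, and their difference was not tested. The protein-coding genes were not limited to genes expressed in these cells, so their share is not a like-for-like background for the 2 sets.

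**Figure D1:**
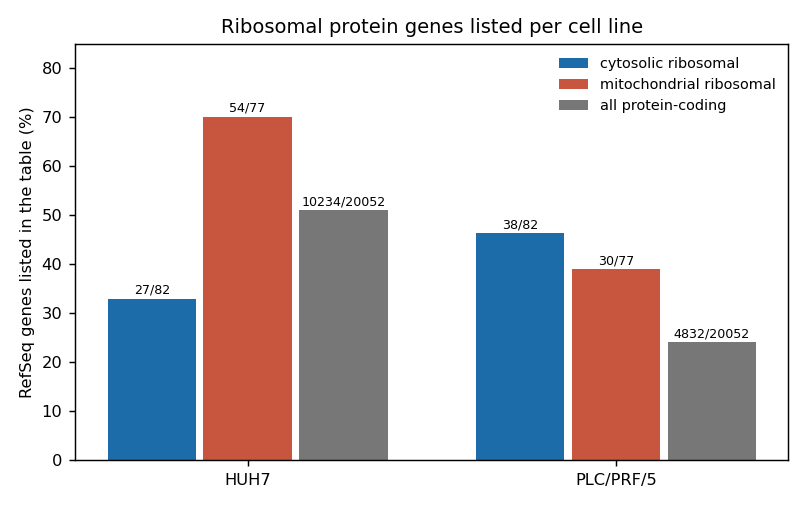
Share of RefSeq genes listed in the authors' deposited table (y axis, percent) in HUH7 and PLC/PRF/5 for cytosolic ribosomal, mitochondrial ribosomal and all protein-coding genes, with the counts above the bars. The mitochondrial bar is the highest in HUH7 (70.1%) and the cytosolic bar in PLC/PRF/5 (46.3%).

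By subunit name, the cytosolic shortfall in HUH7 was larger for the small subunit, with 7 of 32 RPS genes (21.9%) listed and 20 of 50 RPL genes (40.0%). Mitochondrial genes were listed at 67.9% (19 of 28 MRPS) and 71.4% (35 of 49 MRPL). In PLC/PRF/5 the shares were 43.8% for RPS (14 genes), 48.0% for RPL (24 genes), 50.0% for MRPS (14 genes) and 32.7% for MRPL (16 genes). Of the cytosolic genes 13 were listed in both lines, 48.1% of those in HUH7 and 34.2% of those in PLC/PRF/5. Of the mitochondrial genes 22 were listed in both, 40.7% of those in HUH7 and 73.3% of those in PLC/PRF/5. Over all protein-coding genes the overlap was 38.0% of the HUH7 genes and 80.4% of the PLC/PRF/5 genes.

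Neither line listed 30 of 82 cytosolic genes in the table used here, beside 8873 of all 20052 protein-coding genes. The 30 cytosolic genes included the stalk genes RPLP0 and RPLP1, the laminin receptor gene RPSA, and RPL10, whose product joins the large subunit late in its maturation. The 15 of 77 mitochondrial genes in neither line included MRPL1, MRPL13, MRPL24, MRPS5, MRPS14 and MRPS22. In both sets the share in neither line was smaller than over all protein-coding genes, expressed or not, which was not tested.

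In HUH7, the cytosolic set was spread around 0, and the mitochondrial set lay closer together, mostly on the positive side. Positive values were given to 15 cytosolic genes and negative values to 12 (55.6% positive). Their median was 0.05 and their quartiles lay at -0.51 and 0.68. The mitochondrial genes were 42 positive and 12 negative (77.8% positive). Their median was 0.26 and their quartiles lay at 0.0074 and 0.50. Over all 10446 genes 60.8% were positive, the median was 0.20 and the quartiles lay at -0.36 and 0.87. The median size of the log2 fold change, whatever its sign, was 0.64 in the cytosolic set, 0.34 in the mitochondrial set and 0.65 over all genes. A difference in m6A, in the amount of the RNA or in the make-up of these bulk cultures cannot be told apart in these values, nor can fewer cells with a transcript and less of it per cell.

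A log2 fold change at or past 1 in size was held by 6 of 27 cytosolic genes (22.2%) and 8 of 54 mitochondrial genes (14.8%), against 36.9% of all genes in HUH7. In the positive direction this fold was reached by 3 cytosolic and 6 mitochondrial genes, against 22.2% of all genes. On the negative side 3 cytosolic and 2 mitochondrial genes reached it, against 14.6% of all genes. Both sets thus had a smaller share past this fold than the column as a whole, and no test bears on that. Without the values that 10 or more genes share, it was 19.2% of 26 cytosolic, 11.5% of 52 mitochondrial and 27.8% of all 9132 genes. The median size was then 0.62 in the cytosolic set, above the 0.53 of all genes, and 0.31 in the mitochondrial set.

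**Figure D2:**
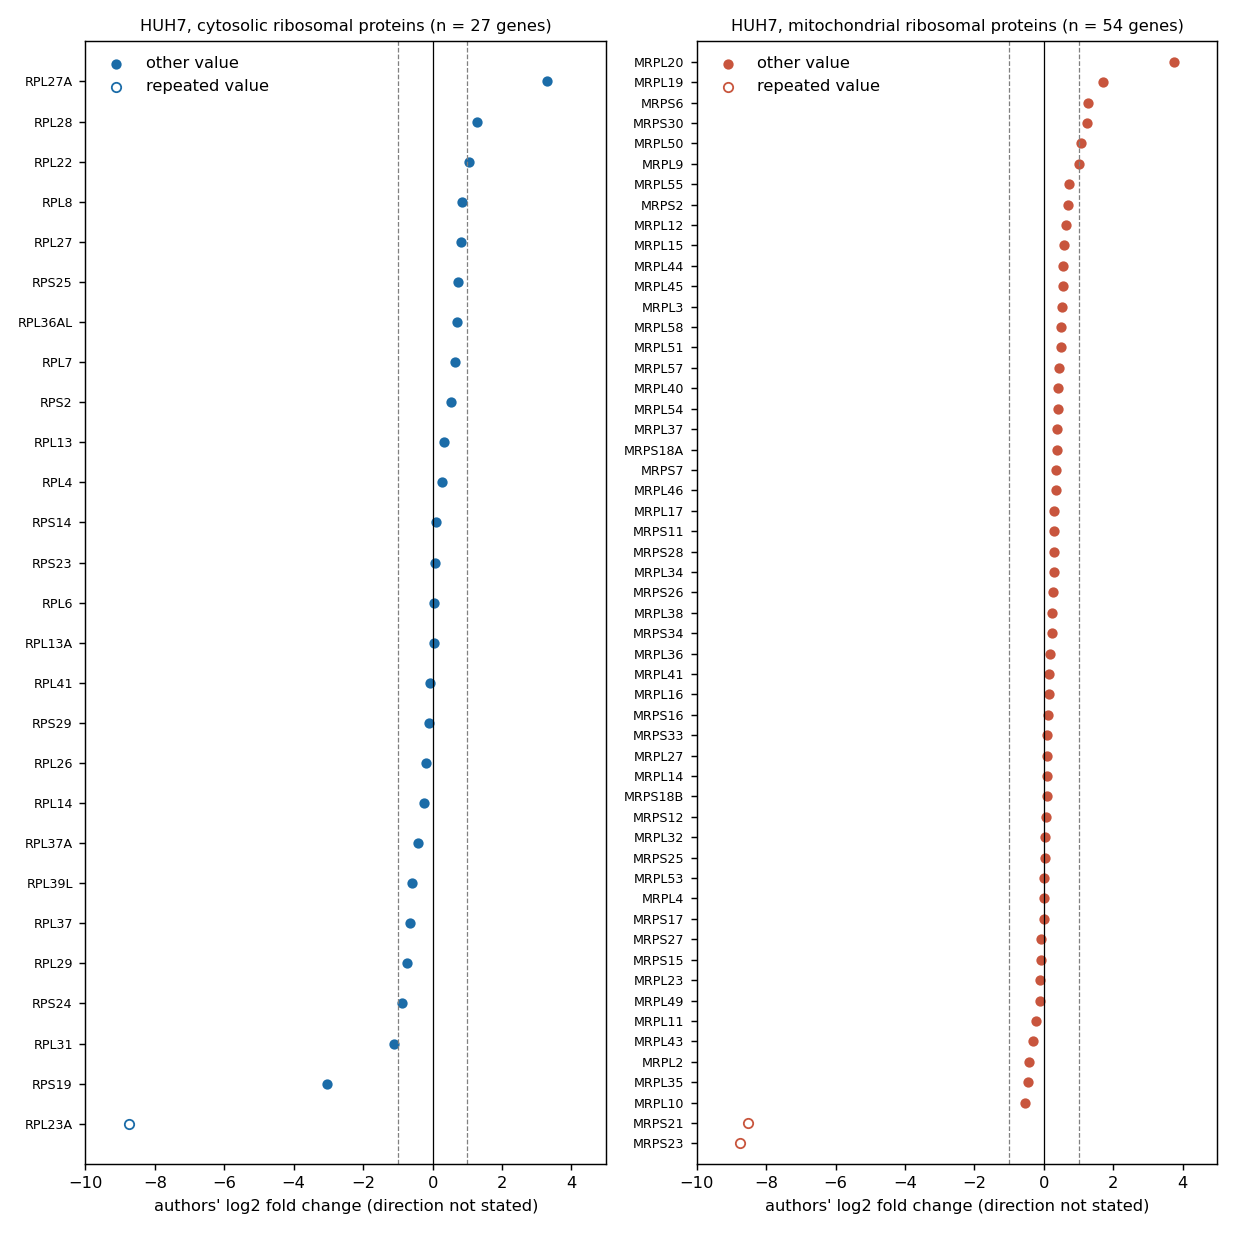
HUH7 log2 fold change in the authors' deposited table (x axis, direction not stated) for each listed cytosolic (left) and mitochondrial (right) ribosomal protein gene, ordered by value, with dashed lines at -1 and 1. Open circles are values that 10 or more genes share. Most mitochondrial genes lie between the dashed lines and right of 0, and RPL23A, MRPS21 and MRPS23 stand alone below -8.

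Among cytosolic large-subunit genes, RPL27A (chromosome 11, 8682792 to 8689872, GRCh38.p14) had the highest value, 3.31 in the authors' deposited table. Next came RPL28 with 1.28 and RPL22, a subunit that also binds other RNAs, with 1.05 in the authors' deposited table. RPL8 (0.86), whose product lies near the peptidyl transferase centre, and RPL27 (0.81) were the first below the fold of 1 in the authors' deposited table. RPL27A thus stood more than 2 log2 units above every other cytosolic gene.

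RPS19 (chromosome 19, 41860255 to 41872925), a small-subunit gene mutated in Diamond-Blackfan anaemia, had the lowest cytosolic value outside the shared ones, -3.04 in the authors' deposited table. RPL31, at the rim of the exit tunnel, had -1.11, followed by RPS24 with -0.89, RPL29 with -0.75 and RPL37 with -0.65 in the authors' deposited table. RPS24 was the gene nearest to the fold of -1 without reaching it. The other small-subunit genes lay between RPS29 at -0.09 and RPS25 at 0.72 in the authors' deposited table. RPS14 (0.09), RPS23 (0.06), whose product lies at the decoding centre, and RPS2 (0.53) were among them.

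The mitochondrial set was led by MRPL20 (chromosome 1, 1401909 to 1407293), a large-subunit gene, with 3.76 in the authors' deposited table. MRPL19 had 1.69, MRPS6 1.27, MRPS30 1.25, MRPL50 1.06 and MRPL9 1.02 in the authors' deposited table. Despite their names, the products of MRPS30 and MRPS18A sit in the large subunit. MRPL20 was again more than 2 log2 units from the next gene of its set.

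On the negative side of the mitochondrial set, outside the shared values, no gene reached -1. The lowest were MRPL10 of the stalk base with -0.53, MRPL2 with -0.44, MRPL35 with -0.44, MRPL43 with -0.33 and MRPL11 with -0.21 in the authors' deposited table. MRPL12, the stalk protein that MRPL10 anchors, had 0.64 in the authors' deposited table, so these neighbours in the ribosome had opposite signs. MRPL58, a peptidyl-tRNA hydrolase that releases stalled chains, had 0.50 in the authors' deposited table. MRPL4 and MRPL53 lay at 0.00075 and 0.0028 in the authors' deposited table. By name, 11 of 20 RPL genes (55.0%, median 0.04) and 4 of 7 RPS genes (57.1%, median 0.06) were positive. For MRPL the count was 28 of 35 (80.0%, median 0.30) and for MRPS 14 of 19 (73.7%, median 0.10).

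Of the members, 3 carried values that many other HUH7 genes carried too. RPL23A (chromosome 17, 28719985 to 28724359), at the exit tunnel of the cytosolic ribosome, and MRPS23 (chromosome 17, 57834781 to 57850044), of the mitochondrial small subunit, both had -8.75 in the authors' deposited table. A total of 85 genes shared this value to 6 decimals. MRPS21 (chromosome 1, 150293861 to 150308979), also of the mitochondrial small subunit, had -8.53 in the authors' deposited table, a value shared by 108 genes. In the whole column 12.6% of genes held such a repeated value, 7.89% on the negative side, against 3.70% of cytosolic genes (1 of 27) and 3.70% of mitochondrial genes (2 of 54).

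The repeated values formed a ladder. Taken out of the log and scaled so that the smallest of each sign is 3, the 8 positive and the 8 negative values fell on the whole numbers 3 to 10, with a deviation of at most 4.12e-06. MRPS21 lay on step 6, and RPL23A and MRPS23 on step 7. No ribosomal gene held a positive repeated value. Without the repeated values, 57.7% of 26 cytosolic and 80.8% of 52 mitochondrial genes were positive, with medians of 0.05 and 0.28, beside 64.2% and 0.23 over the 9132 genes left.

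The transcript starts of the genes at the ends of the HUH7 order show a feature that the rule did not use and that was more frequent in the cytosolic set. RefSeq promoters (GRCh38.p14) matched 65 of 82 cytosolic and 69 of 77 mitochondrial genes. The windows below hold 15 bases before and 15 from the annotated start, on the coding strand, 5′ to 3′. In the cytosolic windows capitals mark the unbroken pyrimidine run that begins with C at the start, and in the mitochondrial ones the ETS motif CTTCCGG.
RPL27A: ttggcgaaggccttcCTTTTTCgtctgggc
RPL28: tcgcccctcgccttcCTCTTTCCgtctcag
RPS19: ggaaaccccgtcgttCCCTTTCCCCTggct
RPL31: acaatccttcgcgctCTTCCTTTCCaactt
MRPL20: gcgctcgtgaccaccatttccgacccgggc
MRPL19: tgattactgggagctgtagtcttgacgtga
MRPS21: tccgCTTCCGGtagtgagaaccCTTCCGGt
MRPS23: gCTTCCGGttccggtagcagctagtcacgc
The MRPL20 and MRPL19 windows hold neither feature.

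The cytosolic windows lie at chr11:8682777-8682806, chr19:55385917-55385946, chr19:41860240-41860269 and chr2:101002274-101002303, all on the plus strand. The mitochondrial ones lie at chr1:1407279-1407308 on the minus strand, chr2:75646768-75646797 and chr1:150293846-150293875 on the plus strand, and chr17:57850030-57850059 on the minus strand. RPS19 has 2 annotated starts, and the one with the run is shown. The runs of RPL27A, RPL28, RPS19 and RPL31 were 7, 8, 11 and 10 bases long. They stand at the starts of the 2 genes with positive and the 2 with negative HUH7 values shown here alike. No window is shown for RPL23A.

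A run of 5 or more pyrimidines beginning with C exactly at a listed start, read on the coding strand only, was found for 46 of 65 cytosolic genes (70.8%). It was found for 6 of 69 mitochondrial genes (8.70%) and for 6.24% of 15842 protein-coding genes with a promoter. Allowing the run anywhere from 5 bases before to 10 bases after the start gave 83.1% of cytosolic, 23.2% of mitochondrial and 28.0% of all genes. Among HUH7 genes with a matched promoter, the 16 cytosolic ones with a run at the start were 8 positive and 8 negative (median -0.02). The 5 without one were 4 positive and 1 negative with a median of 0.27. Other cytosolic HUH7 genes, of 27 in all, had no matched promoter.

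The ETS motif, CCGGAAG or CTTCCGG and so searched on both strands, is bound by factors of the ETS family such as GABPA, which serve many nuclear genes of mitochondria. Within the 300 bases of the promoter it was found for 23 of 65 cytosolic genes (35.4%), 30 of 69 mitochondrial genes (43.5%) and 16.5% of all genes. The 19 mitochondrial HUH7 genes with the motif had a median of 0.22 and the 29 without it 0.30, with 84.2% and 82.8% positive. By the pyrimidine run, 83.3% of mitochondrial HUH7 genes were positive both with it (6 genes) and without it (42 genes). Members with no matched promoter are left out of these splits, and the whole mitochondrial set of 54 was 77.8% positive. A match is a description of letters, not of a bound site.

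**Figure D3:**
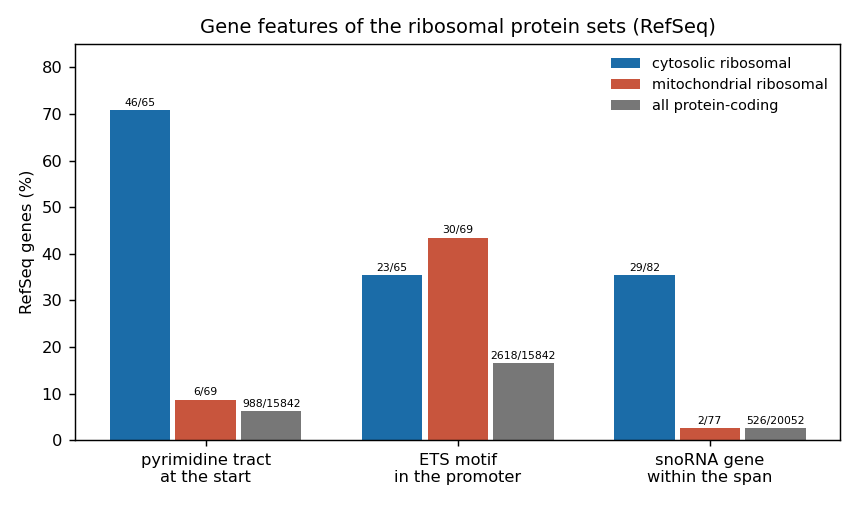
Share of RefSeq genes (y axis, percent) with a pyrimidine run at the transcript start, with an ETS motif in the promoter, and with a snoRNA gene within the gene span, for cytosolic ribosomal, mitochondrial ribosomal and all protein-coding genes, with counts above the bars. The first and the last feature are most frequent in the cytosolic set (70.8% and 35.4%), the ETS motif in the mitochondrial set (43.5%).

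The sets also differed in what else their genes hold. Introns of ribosomal protein genes often carry small nucleolar RNAs, which guide the modification of rRNA. A snoRNA gene lay within the span of 29 of 82 cytosolic genes (35.4%, 60 snoRNAs in all), 2 of 77 mitochondrial genes (2.60%) and 2.62% of all protein-coding genes. Of the cytosolic genes in HUH7, the 8 with a snoRNA were 6 positive and 2 negative (median 0.31), among them RPL27A, RPL28 and RPL23A. The 19 without one were 9 positive and 10 negative (median -0.08). Gene spans were short, with medians of 6173 bases for listed and 4450 for unlisted cytosolic genes in HUH7. For mitochondrial genes they were 7240 bases listed and 16362 unlisted, while over all protein-coding genes listed spans were longer (30587 against 17439 bases). PLC/PRF/5 gave another order for the mitochondrial genes, with 9827 bases listed and 8270 unlisted, and cytosolic spans of 5046 and 4344 bases. Another annotated gene, on either strand and snoRNAs aside, overlapped 36.6% of cytosolic, 41.6% of mitochondrial and 55.2% of all protein-coding genes. RPL27A, RPL28, RPL31, RPS19, RPL23A, MRPL20 and MRPL19 had such an overlap, while RPL22, MRPS21 and MRPS23 had none. Whether their values hold reads of the overlapping gene is not known here.

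Cytosolic ribosomal protein mRNAs have given rise to many processed pseudogenes in the human genome. RefSeq holds 1966 pseudogenes named after cytosolic members, up to 137 for RPL21, and 106 named after mitochondrial members, up to 9 for MRPS21. Reads from near-identical copies can be given to either, so the cytosolic values are uncertain in this respect. Cytosolic genes listed in HUH7 had a median of 12 such pseudogenes and unlisted ones 16. In PLC/PRF/5 the order was opposite, with 22.5 for listed and 12 for unlisted genes. HUH7 listed 0 of these pseudogenes and PLC/PRF/5 listed 27, with 30 values, from 18 parent genes of which 12 were listed as well.

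Pseudogene and parent values could lie far apart or close together in PLC/PRF/5. RPS7 had 3.92 and 8.56, and RPS7P1 had 3.37 and 8.62 in the authors' deposited table. RPL13A had peaks at 2.03, 4.88 and 10.68, while RPL13AP5 had 11.89, RPL13AP20 10.80, RPL13AP25 8.18 and RPL13AP7 4.94 in the authors' deposited table. RPL19 had -1.95 and RPL19P16 0.18 in the authors' deposited table. RPL23A had 3.19, between RPL23AP42 at 0.39 and RPL23AP2 at 10.60 in the authors' deposited table. Over the 27 pseudogenes the median was 5.99 with 85.2% positive. For RPL7, RPL12, RPL26, RPLP0, RPS20 and RPS26 a pseudogene was listed in PLC/PRF/5 and the parent gene was not.

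In PLC/PRF/5, most members of both sets had large positive values, as most genes of that column did. By gene medians, 36 of 38 cytosolic genes (94.7%) and 27 of 30 mitochondrial genes (90.0%) were positive, against 90.3% of all genes. A size at or past 1 was held by 36 cytosolic genes (94.7%) and 28 mitochondrial genes (93.3%), against 89.0% of all genes. At or past 1 on the positive side were 35 cytosolic and 26 mitochondrial genes, against 84.5% of all genes, and on the negative side 1 and 2, against 4.47%. The median was 6.26 in the cytosolic set, 4.84 in the mitochondrial set and 5.45 over all genes, with interquartile ranges of 3.24 to 9.35, 1.68 to 7.97 and 2.40 to 8.50. These shares lie near those of the whole column and the ranges overlap over most of their length.

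The column as a whole was evenly filled. Of its 9516 peaks, 2516 lay from 0 to 4 and again 2516 from 4 to 8, and the extremes were -2.12 and 12.999. The 51 cytosolic peaks had 3 below 0, 14 from 0 to 4, 12 from 4 to 8 and 22 from 8 upward (43.1%, against 33.2% of all peaks). Among the 40 mitochondrial peaks 4 lay below 0, 14 from 0 to 4, 12 from 4 to 8 and 10 from 8 upward. Counted by peaks, 94.1% of cytosolic and 90.0% of mitochondrial peaks were positive, against 86.0% of all peaks. By size, 96.1% of cytosolic and 92.5% of mitochondrial peaks were at or past 1, against 87.1% of all peaks.

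**Figure D4:**
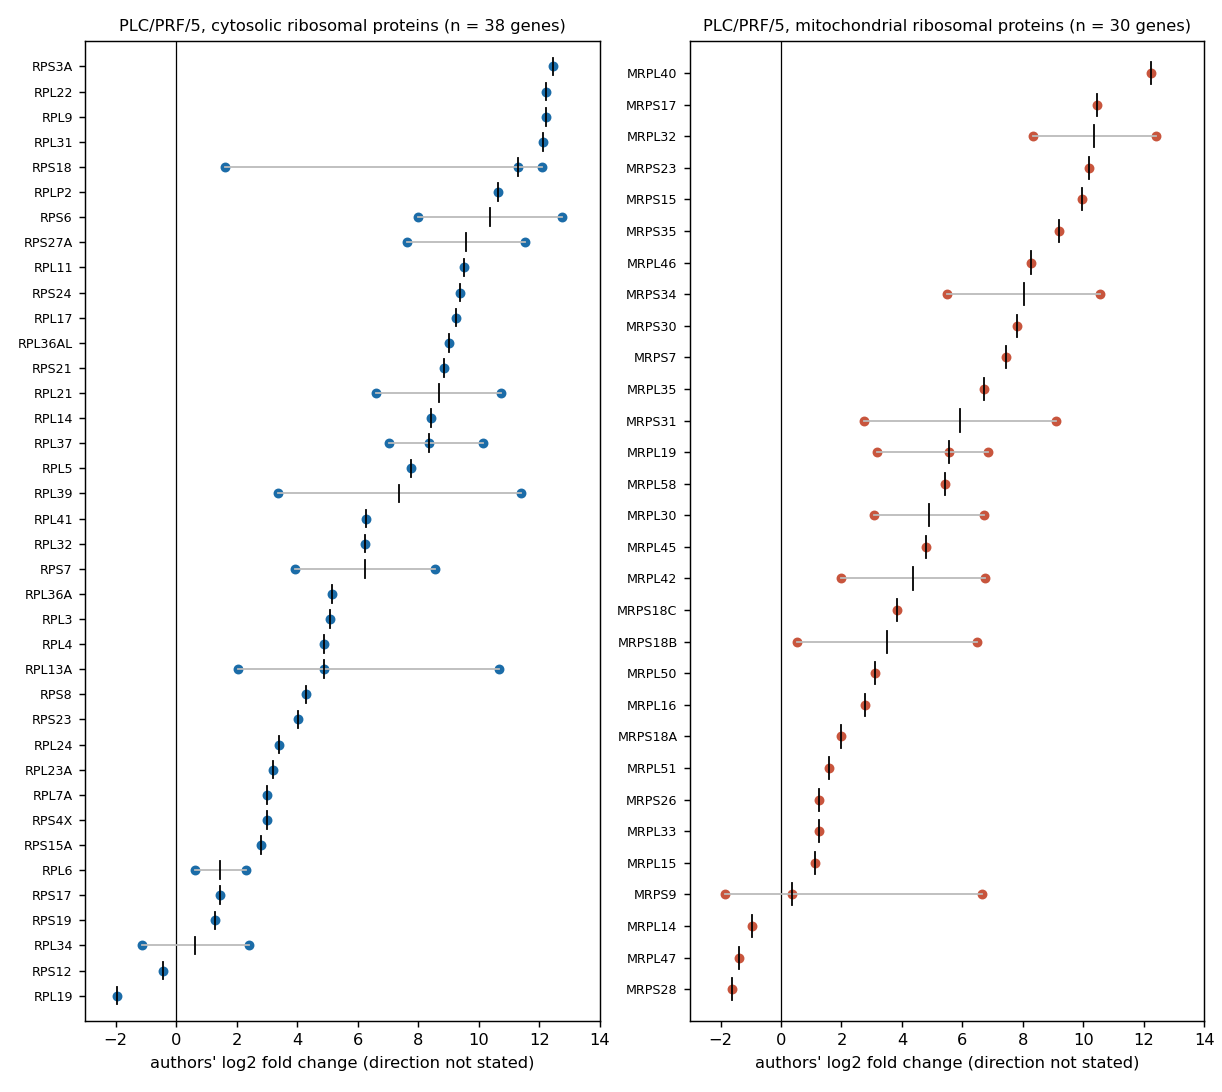
PLC/PRF/5 log2 fold changes in the authors' deposited table (x axis, direction not stated) for each listed cytosolic (left) and mitochondrial (right) ribosomal protein gene. Points are peaks, grey lines join peaks of a gene and black ticks are gene medians. The medians run from -1.95 to 12.44 in the cytosolic set and from -1.61 to 12.22 in the mitochondrial set, with few below 0.

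The highest cytosolic values in PLC/PRF/5 were those of RPS6, the target of S6 kinases, with 12.77 beside a second peak at 8.0, and of RPS3A with 12.44 in the authors' deposited table. RPL22 and RPL9 each had 12.23 and RPL31 had 12.13 in the authors' deposited table. Negative cytosolic peaks were listed for RPL19 (-1.95), RPL34 (-1.13) and RPS12 (-0.45) in the authors' deposited table. RPL34 had a second peak at 2.40 in the authors' deposited table and was the cytosolic gene with peaks of both signs.

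Among other genes with known roles beyond the ribosome, RPL5 had 7.77 and RPL11 9.51 in the authors' deposited table. Their products bind MDM2, the ubiquitin ligase of p53, when ribosome assembly fails. RPS27A, which encodes a fusion of ubiquitin and a small-subunit protein, had 7.63 and 11.54, and the acidic stalk gene RPLP2 had 10.63 in the authors' deposited table. RPL5, RPL11, RPS27A and RPLP2 were picked with their values known, so they do not show where genes with such roles lie as a group.

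Mitochondrial values in PLC/PRF/5 were highest for MRPL32 (12.39 and 8.33), MRPL40 (12.22), MRPS34 (10.56 and 5.49), MRPS17 (10.43) and MRPS23 (10.17) in the authors' deposited table. The negative peaks were those of MRPS9 (-1.85), MRPS28 (-1.61), MRPL47 (-1.39) and MRPL14 (-0.96) in the authors' deposited table. MRPS9 also had peaks at 0.37 and 6.66 in the authors' deposited table, and was the mitochondrial gene with both signs.

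Genes with several peaks numbered 10 of 38 in the cytosolic set (26.3%) and 8 of 30 in the mitochondrial set (26.7%), against 39.5% of all genes, and no member had more than 3. Peaks of 1 gene spanned a median of 4.39 log2 units in the cytosolic, 4.91 in the mitochondrial set and 6.42 over all genes with several peaks. These spans are not like for like, since a span can grow with the number of peaks. Of all 2165 genes with several peaks, 424 had more than 3. RPS18 had the widest span, with 1.60, 11.29 and 12.10 in the authors' deposited table, and RPL6 the narrowest, with 0.63 and 2.29 in the authors' deposited table. RPL37 had 7.03, 8.35 and 10.14, and MRPL19 had 3.17, 5.56 and 6.84 in the authors' deposited table. Pairs of peaks were listed for RPL21 (6.62 and 10.74), RPL39 (3.35 and 11.41) and RPS7 (3.92 and 8.56) in the authors' deposited table. In the mitochondrial set, MRPS18B (0.54 and 6.48), MRPL30 (3.06 and 6.73), MRPL42 (2.0 and 6.75) and MRPS31 (2.74 and 9.10) had pairs in the authors' deposited table.

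Paralogues were present in part. RPL36AL, the autosomal copy of X-linked RPL36A, had 0.71 in HUH7, and in PLC/PRF/5 it had 9.02 and RPL36A had 5.15 in the authors' deposited table. RPL39L had -0.59 in HUH7 in the authors' deposited table, while RPL39 was listed for the other line only. MRPS18A, MRPS18B and MRPS18C, a family of 3 whose members take different places in the ribosome, were listed in part in HUH7, with MRPS18A at 0.37 and MRPS18B at 0.08 in the authors' deposited table. For PLC/PRF/5, MRPS18A had 1.98 and MRPS18C 3.85 in the authors' deposited table.

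The lines were set side by side for the 35 members that both listed, with the caution that the 2 columns may not use the same direction or scale. All 13 shared cytosolic genes were positive in PLC/PRF/5 by their median, while 6 were positive and 7 negative in HUH7. Of 22 shared mitochondrial genes 16 were positive in both, 4 were negative in HUH7 only and 2, MRPL14 and MRPS28, were negative in PLC/PRF/5 only. The share with the same sign was 46.2% in the cytosolic, 72.7% in the mitochondrial set and 56.8% over all 3929 shared genes. With nearly all PLC/PRF/5 genes positive, these shares largely restate the share of positive genes in HUH7.

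Past a fold of 1 in both lines with the same sign were RPL22 (1.05 in HUH7 and 12.23 in PLC/PRF/5), MRPL50 (1.06 and 3.12), MRPS30 (1.25 and 7.82) and MRPL19 in the authors' deposited table. These were 4 of 35 shared members, a smaller share than the 614 of all 3929 shared genes, which was not tested. With opposite signs were RPL31 (-1.11 in HUH7 and 12.13 in PLC/PRF/5), RPS19 (-3.04 and 1.28), RPL23A (-8.75 and 3.19) and MRPS23 (-8.75 and 10.17) in the authors' deposited table. That was 11.4% of shared members, near the 11.1% of all shared genes. By set it was 3 of 13 cytosolic (23.1%) and 1 of 22 mitochondrial genes (4.55%), which was not tested. Other shared genes lay near 0 in HUH7 and well away from it in PLC/PRF/5, such as RPL13A (0.04), MRPS17 (-0.01), MRPS15 (-0.08) and RPL41 (-0.08) by their HUH7 values in the authors' deposited table.

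**Figure D5:**
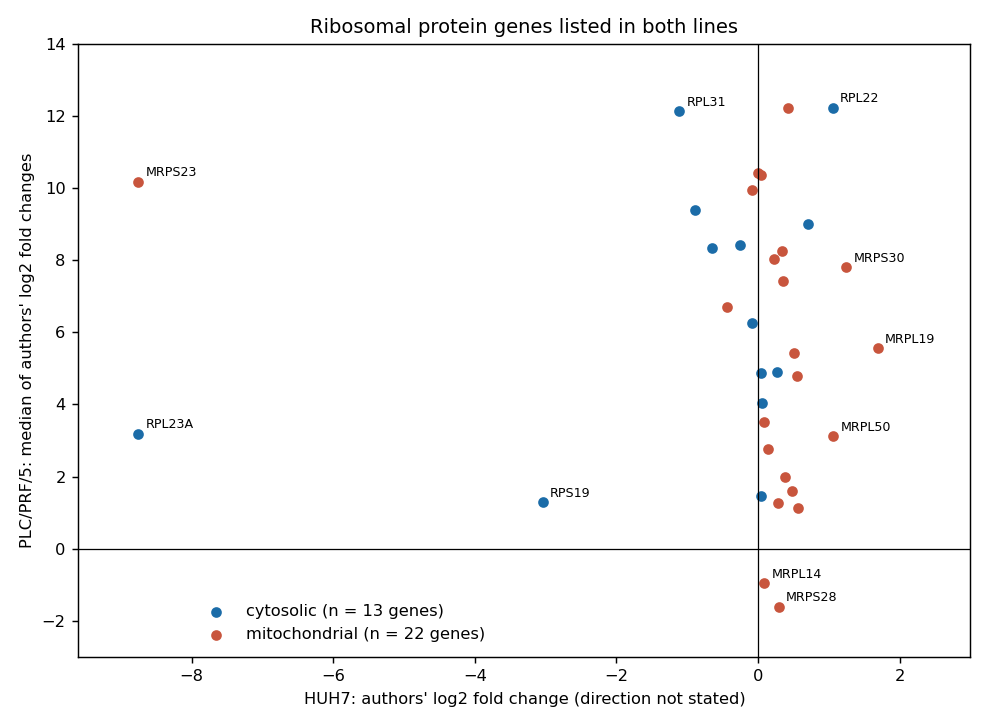
Ribosomal protein genes listed in both lines, with the HUH7 log2 fold change (x axis) against the median PLC/PRF/5 log2 fold change (y axis), both from the authors' deposited table with direction not stated. Genes with an HUH7 size of 1 or more or a negative PLC/PRF/5 median are named. All 13 cytosolic points lie above 0 on the y axis, and MRPL14 and MRPS28 lie below it.

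Genes that work with the ribosome had lower shares of positive values in HUH7 than the mitochondrial ribosomal set, with no test of the difference. Of 39 listed translation factors 25 were present, 13 positive and 12 negative (52.0%, against 60.8% of all genes), with a median of 0.01. Past a fold of 1 were 3 (12%, against 36.9% of all genes), 1 of them, EIF3K, with a repeated value, -9.27 in the authors' deposited table. EIF4G2, a scaffold of cap-independent initiation, had 3.80, EIF3F -1.44, EIF3J 0.98 and EIF5A -0.82 in the authors' deposited table. LARP1, which binds TOP mRNAs, had 0.24 in HUH7, and in PLC/PRF/5 it had 6.52 and 6.99 in the authors' deposited table. LARP1 and the genes named for repeated values were chosen after their values were seen.

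Of 49 ribosome biogenesis genes 33 were present in HUH7, 17 positive and 16 negative (51.5%, against 60.8% of all genes), with a median of 0.03. Past a fold of 1 were 8 (24.2%, against 36.9%), 1 of them, RRN3, with a repeated value, -8.94 in the authors' deposited table. The pseudouridine synthase gene DKC1 had 2.35, the RNA polymerase I subunit gene POLR1B 2.02, its activator UBTF -1.48 and PNO1 1.42 in the authors' deposited table. Of 49 genes of mitochondrial translation and mitoribosome assembly 42 were present, 22 positive and 20 negative (52.4%, against 60.8% of all genes), with a median of 0.0040. Past a fold of 1 were 13 (31.0%, against 36.9%), and 3 of these held repeated values, GFM1 (-8.94), MALSU1 (-8.27) and SLIRP (11.09), in the authors' deposited table. The tRNA synthetase genes VARS2 and SARS2 had -3.31 and 3.10, YBEY had 2.95 and the assembly GTPase gene ERAL1 2.81 in the authors' deposited table. The factors of mitochondrial translation were thus 52.4% positive and its ribosomal proteins 77.8%, a difference that was not tested.

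These lists again followed the column in PLC/PRF/5, with 23 of 26 translation factors, 30 of 34 biogenesis genes and 18 of 19 genes of mitochondrial translation positive. Subunits that carry other names were few. RACK1 of the small cytosolic subunit had -0.30 in HUH7 and for PLC/PRF/5 FAU had 7.81 in the authors' deposited table. All 5 mitochondrial subunits under other names were listed in HUH7, with DAP3 at 0.25, GADD45GIP1 at 0.11, CHCHD1 at 0.73, AURKAIP1 at -0.07 and PTCD3 at -7.53 in the authors' deposited table. The PTCD3 value is a repeated one, on step 3 of the ladder.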

How the data were processed

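The m6A libraries were IP and input of CSTF2-knockout and parental cells, 1 per group. The log2 fold changes are those the authors deposited, per the file headers 1 column per cell line. Genome build hg38 and FastQC 0.12.0 are named in the submitters' processing notes. For aligner, peak caller, scaling, filters and test the entry is: not given in the sources used here. Sequencing depth is unknown, so no interval from counts could be given. Names were brought to current symbols through RefSeq (GRCh38.p14), which changed 0 members. A PLC/PRF/5 gene took the median of its peaks. Repeated means an HUH7 value above 1 in size that at least 10 genes hold identically to 6 decimals. Sets were described by counts, by genes past an absolute log2 fold change of 1 and by medians, with pandas 2.3.3, tested on simulated data. Members and lists were chosen with earlier results of these data known. Named were the 5 largest unrepeated values per sign and set, repeated values, genes in both lines, genes with several peaks, and 4 genes per related list. Other members named were chosen after their values were seen. Alternatives changed the fold, the name rule, the repeated values and the gene summary.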

Additional observations from a re-analysis of the deposited data

Results flagged for a closer look

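In 4 ribosomal genes the lines gave values past a fold of 1 with opposite signs in the authors' deposited table. MRPS23 had -8.75 in HUH7 and 10.17 in PLC/PRF/5, RPL23A had -8.75 and 3.19, RPL31 had -1.11 and 12.13, and RPS19 had -3.04 and 1.28 in the authors' deposited table. Each line is 1 comparison with no replicate, and the difference between the lines was not tested. The -8.75 of MRPS23 and RPL23A is a repeated value, held by 85 HUH7 genes. Such opposite values were found for 4 of 35 shared ribosomal genes (11.4%) and for 436 of all 3929 shared genes (11.1%), so the pooled share is near that of the whole table. By set it was 3 of 13 cytosolic (23.1%) and 1 of 22 mitochondrial genes (4.55%), which was not tested.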

How the results depend on the processing

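A 95% interval was taken over the member genes of each set for positive shares and medians. Genes are not replicates, so the interval gives no error of the comparison between genotypes. Only medians could change sign, and using names exactly as deposited could move nothing, since 0 members had been renamed. Of 56 values recomputed under an alternative, 52 moved by less than their interval or, for counts, less than 1.5 times, and 0 changed sign. The exceptions were counts past the fold in HUH7. With the fold set to 2 in log2 size, 3 cytosolic and 3 mitochondrial genes passed, against 21.4% of all genes. With it set to 0.5, 16 of 27 cytosolic and 17 of 54 mitochondrial genes passed, against 57.7% of all genes. At 0.5 the cytosolic share was thus not below that of all genes, while the mitochondrial share still was. The alternative's own construction sets these counts. Leaving out repeated values, adding subunits under other names, barring letter suffixes, and counting each peak or the largest peak of a gene in PLC/PRF/5 did not move the positive shares or medians beyond their intervals. These alternatives kept most of the same genes and the intervals are wide (35.3% to 74.5% for the HUH7 cytosolic positive share), so staying within them shows little. The largest peak per gene raised the PLC/PRF/5 medians from 6.26 to 8.10 (cytosolic) and from 4.84 to 6.68 (mitochondrial). No paired analysis was possible because each group held 1 library. The files used here give no counts, so depth sets no stated limit.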

Other observations

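Names close to the rule but outside it were RPL7L1 (0.17), RPS19BP1 (0.06) and the readthrough RPS10-NUDT3 (1.40) in HUH7 in the authors' deposited table. In PLC/PRF/5 they were RPL7L1 (9.84), RPL22L1 (4.68), RPL26L1 (8.41), RPL17-C18orf32 (8.72), RPL36A-HNRNPH2 (-1.19 and 4.52), RPS10-NUDT3 (-0.93 and 0.64) and the antisense gene MRPS9-AS1 (10.89) in the authors' deposited table. Reads from a readthrough transcript and from the ribosomal gene it contains cannot be told apart in these values.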
